A study of Mus musculus with 6 samples.

Results

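The clustered protocadherins are a family of neuronal cell-surface adhesion genes that lie in 3 neighbouring clusters, alpha, beta and gamma. Their expression was compared in the auditory cortex of C57 mice between 3 libraries labelled WNT3 control and 3 labelled as overexpressing Wnt3, a secreted ligand of the Wnt pathway. Members were taken by gene symbol alone, though this family was chosen with earlier results of these data known. This gave 58 genes of the 50559 in the count table, of which 14 were alpha, 22 beta and 22 gamma. The labels do not give the age of the mice, how Wnt3 was overexpressed, what the controls received, or whether libraries of a group come from different mice. The p-values therefore speak for the spread among these libraries alone, which may be technical. Although the tissue is labelled auditory cortex, the protocol for RNA names striatum.

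Each alpha and gamma gene contributes its own large first exon, which encodes the extracellular cadherin repeats, the membrane span and part of the cytoplasmic tail. This exon is spliced to short constant exons that all genes of the cluster share, whereas beta genes consist of a variable exon alone. A neuron switches on a few variable promoters, largely at random, with the help of the DNA-binding protein CTCF and the cohesin ring, and the resulting set of proteins binds only to matching sets on other membranes. Dendrites and axons use this code to recognise and avoid branches of their own cell. The C-type genes at the ends of the alpha and gamma clusters are the exception, as many neurons express them without random choice.

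All 58 members were found by symbol in the RefSeq annotation of GRCm38.p6, the mm10 assembly, on chromosome 18. The alpha cluster spanned positions 36930285 to 37188897, the beta cluster 37264998 to 37521419 and the gamma cluster 37661775 to 37841873. The 14 alpha genes ended within 1300 bases of each other, as did 21 of the 22 gamma genes, the exception being Pcdhgb8, which RefSeq lists as a transcribed pseudogene. Reads from the shared constant exons cannot be assigned to a promoter by position. How the authors' counting divided them is not given in the sources used here. Counts of single alpha and gamma genes are therefore more uncertain than cluster totals. RefSeq also lists Gm37013, Gm38666 and Gm38667, gene models that run from the alpha cluster to the end of the gamma cluster. Reads counted for them are left out of the cluster totals. For Gm37013 the counts were 95, 3 and 139 in controls 1 to 3, then 137, 84 and 211 for overexpression, whereas Gm38667 had 170 and 163 counts in overexpression 2 and 3 and none in the other 4 libraries.

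Total counts ranged from 42614588 to 71803617 per library, and 22360 genes had enough counts to be tested. Wnt3, the targeted gene, was at 2.70, 1.91 and 1.74 CPM (counts scaled to library size with TMM factors) in controls 1 to 3. Overexpression 1 stood far above at 98.8 CPM, and overexpression 2 and 3 were at 7.45 and 8.71 CPM, all above the controls (log2 fold change 4.18 ± 1.02 SE, edgeR adjusted p = 0.822, or 4.11 without control 2). Without overexpression 1 the Wnt3 log2 fold change was 1.94 by edgeR. With all libraries DESeq2 gave Wnt3 no p-value (log2 fold change 4.19). It called Wnt3 without overexpression 1, 2 or 3 (DESeq2 adjusted p = 0.000425, 0.0492 and 0.0350) but not without control 1, 2 or 3 (0.197, 0.258 and 0.221). All 8 markers of excitatory cortical neurons were counted in every library, with summed levels of 3528 to 4937 CPM in the controls and 4503 to 4630 CPM in overexpression. All 8 striatal projection neuron markers were also counted in every library, at sums of 177 to 356 and 188 to 258 CPM. Control 2 stood apart from the other 5 libraries. With the tested genes divided into 10 equal bins by transcript length, its median difference in log2 CPM from the mean of controls 1 and 3 was 1.02 in the shortest bin and -0.75 in the longest. In the other libraries the same medians lay between -0.07 and 0.06. Fold changes and medians below are therefore given with and without control 2.

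Most protocadherins were low in control 2. It had the lowest level of all 6 libraries for 10 of 14 alpha, 19 of 22 beta and 14 of 22 gamma members, against 33.9% of all tested genes. Over tested genes within the same range of transcript length as each cluster, that share was 67.7%, 35.7% and 44.7%, so the alpha count was near its background. The median log2 difference of control 2 from controls 1 and 3 was -1.53 for alpha, -1.02 for beta and -0.75 for gamma members. For all genes in the same length ranges it was -0.54, -0.08 and -0.20. What sets control 2 apart was not tested.

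**Figure D1:**
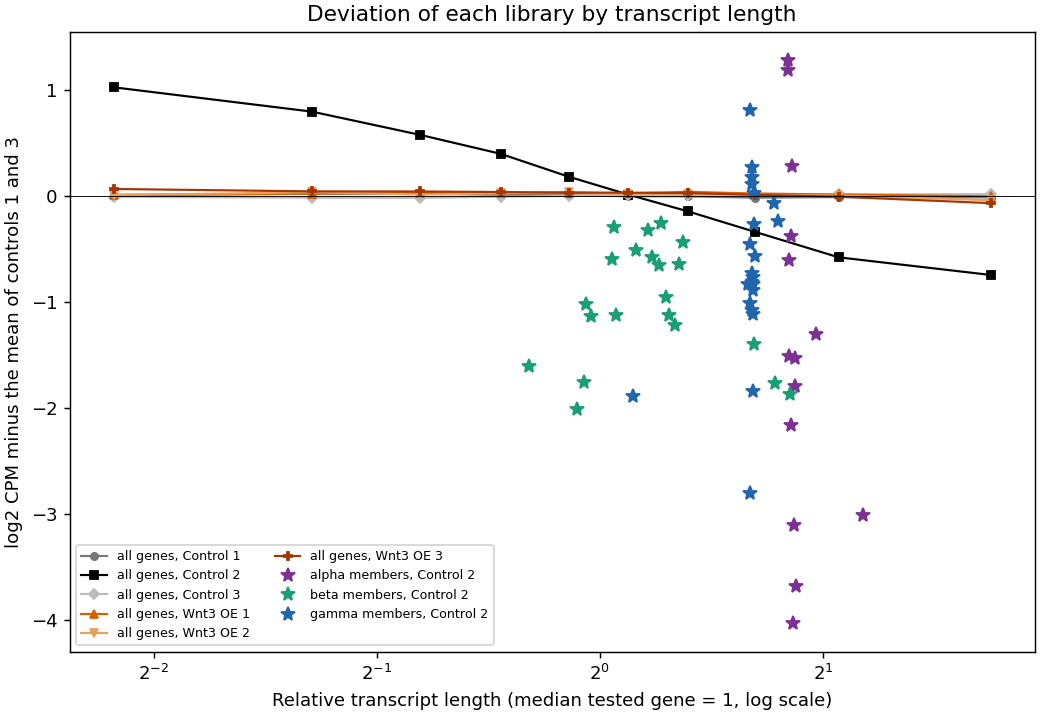
Median log2 CPM of all tested genes minus the mean of controls 1 and 3, by bin of relative transcript length (log scale) (lines, 1 per library), with the single protocadherins of control 2 as stars. The line of control 2 goes from 1.02 in the shortest to -0.75 in the longest bin, and most stars lie below it.

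The alpha cluster of control 2 also held a different mix of member levels. Whether this reflects promoter use, or how reads of shared exons were divided, was not tested. Pcdha5, Pcdha6, Pcdha7, Pcdha8 and Pcdha9, which are neighbours, were at 0.97, 1.25, 0.26, 0.24 and 1.30 CPM in control 2, on 13 to 71 counts each. The ratios of these levels to the means of controls 1 and 3 were 0.08, 0.12, 0.05, 0.20 and 0.11. In CPM, Pcdha4, Pcdha10 and Pcdha12 were instead highest in control 2, as were Pcdhga3, Pcdhga5 and Pcdhgb7 of the gamma cluster and 35.8% of all tested genes. Pcdha12 was at 49.2 CPM in control 2 against 18.9 to 27.2 CPM in the other 5 libraries, and took 34.2% of the alpha TPM there. TPM is a level per transcript length, which allows genes to be compared. In the other libraries the share of Pcdha12 was 9.93% to 14.6%. Of the genes highest in control 2 in CPM, only Pcdha10 and Pcdha12 were also highest there in TPM. Pcdhga3 and Pcdhgb7 were lowest in control 2 in TPM, at 9.997 and 5.65. The 12 variable alpha genes summed to 112 CPM in control 2, close to the 118 and 123 CPM of controls 1 and 3. This was within the 96.9 to 123 CPM of overexpression, so that in CPM their total was near the others while its split differed. In TPM the 14 alpha members together were lowest in control 2, at 45.3 against 71.1 to 90.9 in the other libraries. Across the 14 alpha members, log2 CPM of control 2 correlated with the other libraries at r = 0.49 to 0.77, whereas the other 5 libraries correlated among themselves at 0.74 to 0.97. These correlations are across genes that share exons and serve as a description. In the gamma cluster the same ranges were 0.86 to 0.89 and 0.96 to 0.98.

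**Figure D2:**
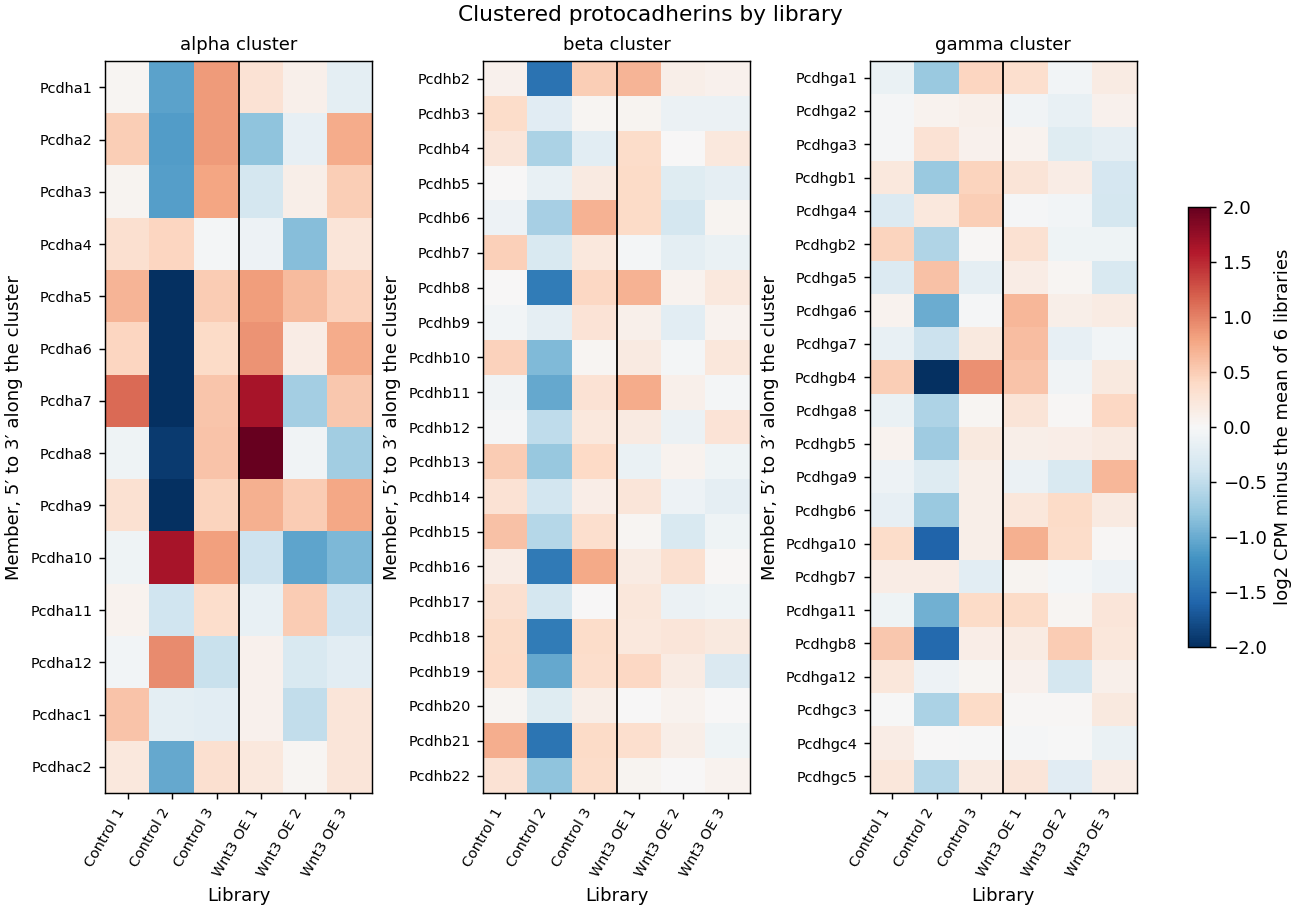
Log2 CPM of the 57 tested members minus the mean of the 6 libraries (colour, limited to values from -2 to 2), in genome order within each cluster, with controls left and overexpression right of the line in each panel. Control 2 is the column that differs most, with Pcdha5 to Pcdha9 low and Pcdha10 and Pcdha12 high.

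By edgeR and limma no clustered protocadherin passed the comparison of overexpression with control, whereas DESeq2 called Pcdha10. In edgeR's quasi-likelihood test, adjusted by Benjamini-Hochberg over the whole table, 0 of 57 tested members had an adjusted p under 0.05, as did 0% of all tested genes, and the lowest adjusted p of a member was 0.822. Before adjustment 1 member, Pcdha10, had p under 0.05, against 4.65% of all tested genes. The DESeq2 call of this single member stands against 0.25% of the genes to which it gave an adjusted p. The groups did not overlap for 4 of the 57 members (Pcdha9, Pcdhga6 and Pcdhgb6 higher and Pcdha10 lower in overexpression), against 11.9% of all tested genes, 5.89% higher and 6.04% lower. Pcdhb1, the untested member, had 6 counts in control 3, 6 in overexpression 3 and none elsewhere.

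Median log2 fold changes were close to 0 in all clusters with all libraries and moved with single libraries left out. They were 0.01 for the 14 alpha, 0.0044 for the 21 tested beta and 0.10 for the 22 gamma members, beside -0.0069 for all tested genes. Without control 2 they were -0.14, -0.16 and -0.03, so that all signs turned, beside 0.02 for all tested genes. Without control 3 they were 0.48, 0.19 and 0.36, a larger move for each cluster than without control 2, though by little for beta. Without control 1 they were 0.10, 0.15 and 0.20, and without overexpression 1 -0.05, -0.08 and -0.0053. With all libraries 33 of 57 members had a log2 fold change above 0 (49.3% of all tested genes did), and without control 2 38 of 57 were below 0 (46.8% of genes tested there). The signs of the alpha and beta medians also turned with upper quartile factors, where they were -0.0044 and -0.01. In the authors' TPM, on the log2(TPM + 1) scale, the medians were 0.19, 0.21 and 0.34, but there the median of all genes moved up by 0.19 as well.

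**Figure D3:**
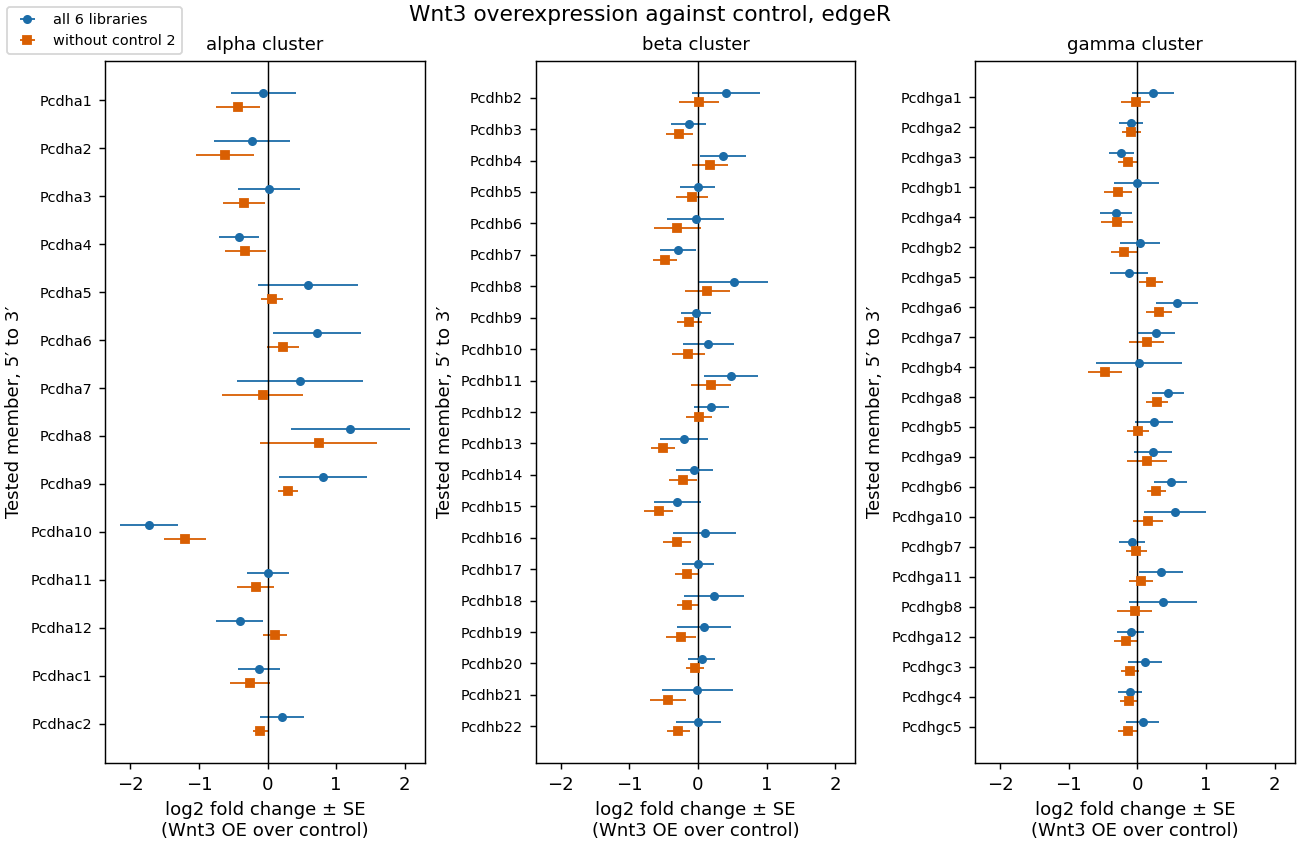
Log2 fold change of overexpression over control with its SE for each tested member, from the edgeR fit with all 6 libraries (circles) and without control 2 (squares), in genome order. Pcdha10 lies farthest below 0 in both fits, at -1.73 and -1.20, and most other members move to lower values when control 2 is left out.

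Cluster totals in CPM differed little between the groups. They do not depend on how shared exons were divided among the members of a cluster. Reads counted for the gene models that span the alpha and gamma clusters are not in them, and those counts differed between libraries. Alpha members summed to 194, 147 and 199 CPM in controls 1 to 3 and to 195, 159 and 188 CPM in overexpression 1 to 3. The group means were 180 ± 28.7 and 181 ± 19.4 CPM (SD, n = 3). Beta members summed to 137, 78.5 and 140 CPM in the controls and 134, 115 and 115 CPM in overexpression, with means of 119 ± 34.8 and 122 ± 10.9 CPM (SD, n = 3). Control 2 was the lowest library for each of these sums. Gamma members, the most abundant, summed to 541, 386 and 594 CPM in the controls and 597, 496 and 560 CPM in overexpression, with means of 507 ± 108 and 551 ± 51.2 CPM (SD, n = 3). The groups overlapped for all 3 sums. The log2 ratios of the means were 0.0067, 0.03 and 0.12 for alpha, beta and gamma, and -0.12, -0.19 and -0.04 without control 2. Without control 2 the beta sums did not overlap, with all 3 overexpression libraries below controls 1 and 3 (of single genes tested there, 10.8% did so). In bulk tissue, fewer cells of a type and less RNA per cell cannot be told apart.

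Pcdha10 had the largest difference between the groups among alpha members. This variable alpha gene encodes an adhesion receptor of the random-choice type, at positions 37005320 to 37187657. It was at 8.10, 27.0 and 15.2 CPM in controls 1 to 3 and at 6.49, 4.13 and 4.61 CPM in overexpression 1 to 3. Every overexpression library lay below every control, although control 1 exceeded overexpression 1 by a small margin and the controls themselves ranged widely. The means were 16.8 ± 9.54 and 5.08 ± 1.25 CPM (SD, n = 3), and the log2 fold change was -1.73 ± 0.42 (SE) with an adjusted p of 0.822 by edgeR. Its unadjusted p in that fit was 0.00345. Without control 2, where Pcdha10 was high while most of the cluster was low, the log2 fold change was -1.20 ± 0.31 (SE) and the adjusted p of the edgeR test 0.655. DESeq2 gave adjusted p = 0.0234 with all libraries and 0.0474 without control 2, where it called 0.571% of genes. The DESeq2 call was lost without overexpression 1, 2 or 3 (adjusted p = 0.0523, 0.323 and 0.204). As a share of alpha TPM, Pcdha10 took 4.38%, 18.8% and 8.05% in controls 1 to 3, against 3.50%, 2.73% and 2.58% with overexpression.

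**Figure D4:**
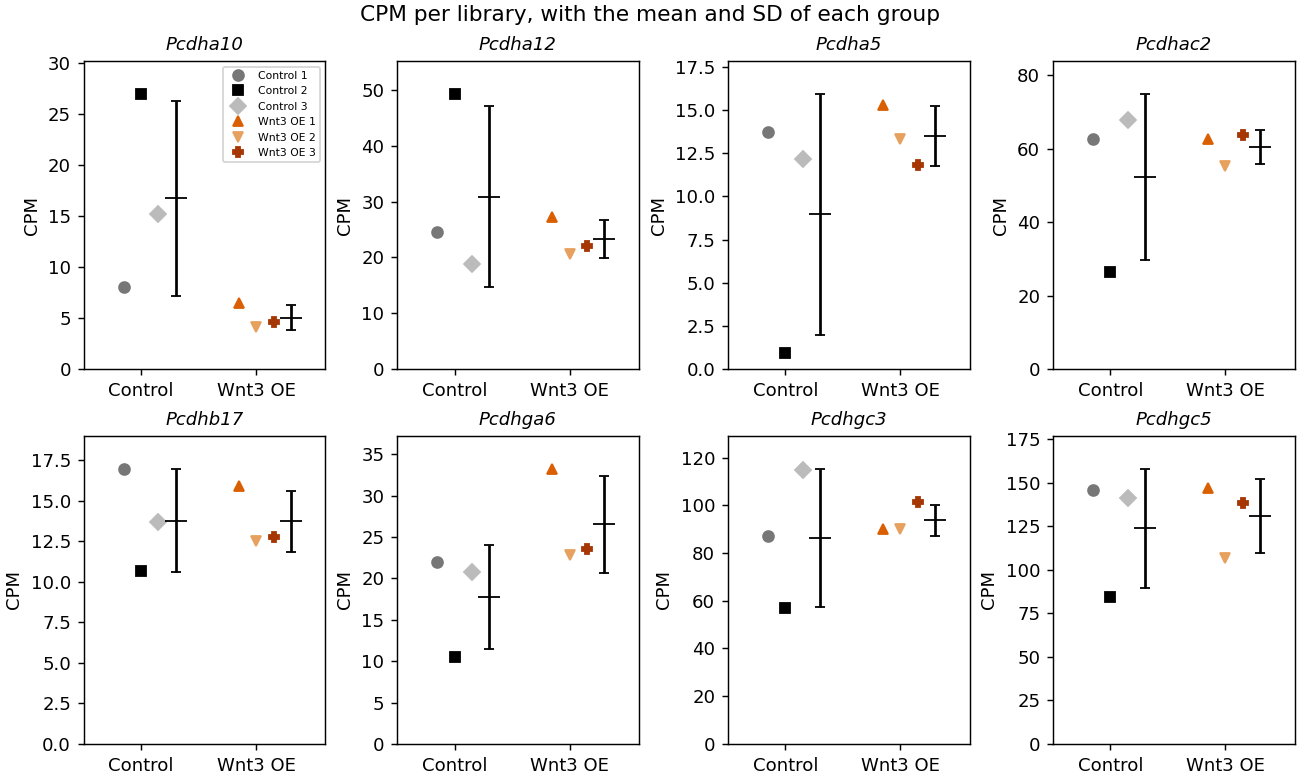
CPM of 8 members in each library (points, controls left and overexpression right), with the group mean and SD (bars, n = 3). For Pcdha10 the 3 overexpression libraries lie between 4.13 and 6.49 CPM, below the controls at 8.10 to 27.0 CPM, and control 2 is the highest library for Pcdha10 and Pcdha12 and the lowest in the other 6 panels.

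The other variable alpha genes had wide spreads. Pcdha12, the most abundant of them, was at 24.6, 49.2 and 18.9 CPM in the controls and 27.2, 20.7 and 22.0 CPM in overexpression. Its log2 fold change of -0.41 ± 0.34 (SE) was 0.10 ± 0.17 without control 2. Pcdha4 was at 17.6, 18.9 and 13.7 CPM in the controls and at 13.1, 7.78 and 16.6 CPM in overexpression, with groups that overlapped. For Pcdha4 the log2 fold change was -0.42 ± 0.29 (SE), or -0.32 ± 0.30 without control 2. Pcdha8, the least abundant alpha gene, was at 0.94, 0.24 and 1.503 CPM in the controls. In overexpression it was at 4.65, 0.95 and 0.60 CPM, so that overexpression 1 alone stood high. Its log2 fold change was 1.21 ± 0.87 (SE), or 0.75 ± 0.85 without control 2, and turned to -0.20 without overexpression 1. Pcdha9 was at 10.9, 1.30 and 12.1 CPM in the controls and at 14.4, 12.6 and 15.2 CPM in overexpression, where each library exceeded every control. Its log2 fold change of 0.80 ± 0.64 (SE) was 0.30 ± 0.15 without control 2, still with groups that did not overlap. The rest, Pcdha1, Pcdha2, Pcdha3, Pcdha5, Pcdha6, Pcdha7 and Pcdha11, had log2 fold changes from -0.22 (Pcdha2) to 0.72 (Pcdha6). Without control 2 these genes ran from -0.62 (Pcdha2) to 0.22 (Pcdha6), with Pcdha5 at 0.06 in place of 0.59 and Pcdha7 at -0.07 in place of 0.48. Within groups and without control 2, the median SD of log2 CPM was 0.43 over the 12 variable alpha genes, against 0.26 for 619 other genes of the same range of level and length. For beta members it was 0.20, against 0.27 for 2674 other genes, and for gamma members 0.22, against 0.16 for 3333. With control 2 included all of these were wider than the other genes, at 0.83 against 0.38 for variable alpha, 0.46 against 0.34 for beta and 0.37 against 0.23 for gamma members.

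The C-type genes made up a large part of both clusters that have them. Pcdhgc5, which is known to bind GABA-A receptors, had the highest mean level of all 58 members at 63.7 TPM. Pcdhgc3, whose protein is known to bind Axin1 and restrain canonical Wnt signalling, followed at 45.3 TPM, and Pcdhac2, which serotonergic axons need to spread evenly, at 23.5 TPM. Pcdhac1 was at 4.08 TPM and Pcdhgc4, on which the survival of cortical interneurons depends, at 6.91 TPM. Together the 2 alpha C-types took 38.3%, 22.3% and 36.8% of the alpha TPM in controls 1 to 3 and 36.1%, 37.7% and 38.6% in overexpression. The 3 gamma C-types took 46.0%, 40.5% and 45.6% of the gamma TPM in the controls and 42.1%, 42.5% and 45.2% in overexpression. Control 2 had the lowest share in both clusters.

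None of the 5 C-type genes passed the test, and the groups overlapped for each. Pcdhgc5 was at 146, 84.3 and 141 CPM in the controls and at 147, 107 and 138 CPM in overexpression, a log2 fold change of 0.08 ± 0.24 (SE). Pcdhgc3 was at 87.3, 57.1 and 115 CPM in the controls and 89.9, 89.9 and 101 CPM in overexpression, a log2 fold change of 0.12 ± 0.25 (SE). In both genes control 2 was the lowest library. Pcdhac2 was at 62.7, 26.4 and 67.7 CPM in the controls and 62.7, 55.2 and 63.6 CPM in overexpression, a log2 fold change of 0.21 ± 0.32 (SE). Without control 2 these 3 log2 fold changes were -0.13, -0.11 and -0.11. Pcdhgc4 varied little, at 16.6, 15.1 and 14.9 CPM in the controls and 14.8, 14.9 and 13.7 CPM in overexpression, and control 2 was not low for it. Its log2 fold change was -0.10 ± 0.17 (SE), or -0.12 without control 2. Pcdhac1 was at 13.4, 7.83 and 7.79 CPM and at 9.52, 6.43 and 10.6 CPM in the same order, with a log2 fold change of -0.13 ± 0.30 (SE) that was -0.26 without control 2 and 0.19 without control 1.

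**Figure D5:**
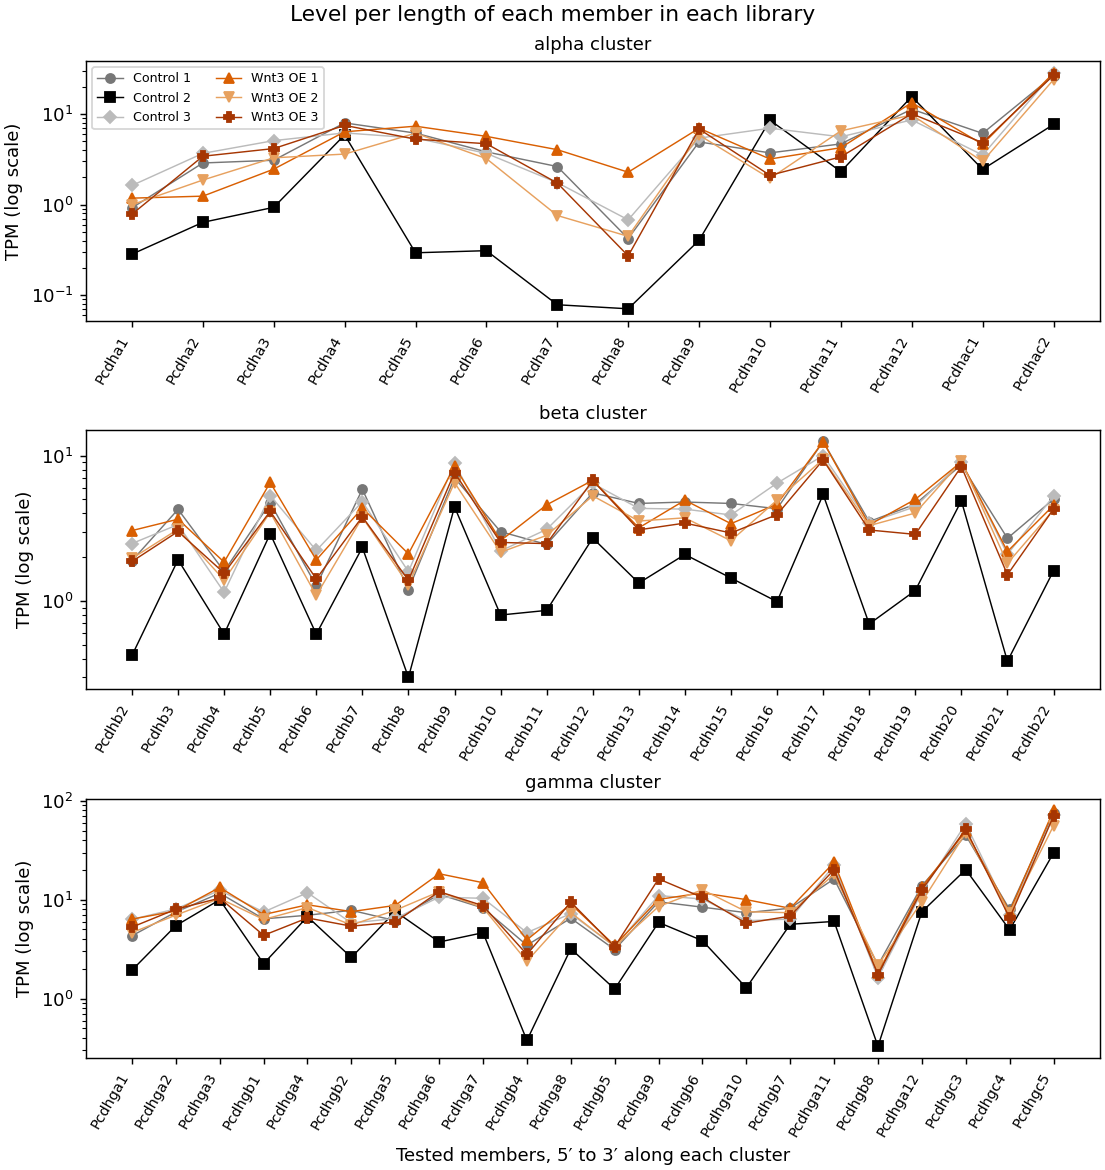
TPM of each tested member on a log scale, in genome order within the alpha, beta and gamma clusters, with 1 line per library. Pcdhac2, Pcdhgc3 and Pcdhgc5 stand highest, and control 2 (black squares) is lowest for most members, though not at Pcdha4, Pcdha10 or Pcdha12.

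Beta genes are single variable exons, so that none of their counts come from exons shared with another member, though near-identical stretches of sequence may still divide reads. Their mean levels ran from 0.03 TPM for Pcdhb1 to 9.87 TPM for Pcdhb17, with a median of 3.29 TPM. Pcdhb17 was at 17.0, 10.7 and 13.7 CPM in the controls and 15.9, 12.5 and 12.8 CPM in overexpression, a log2 fold change of -0.0049 ± 0.23 (SE), or -0.16 ± 0.17 without control 2. Pcdhb20 was at 12.2, 10.03 and 12.9 CPM in the controls and 11.98, 12.5 and 11.9 CPM in overexpression. Pcdhb9 was at 8.94, 8.20 and 11.3 CPM in the controls and 10.02, 8.06 and 9.76 CPM in overexpression. In these 3 genes the groups overlapped. Pcdhb20 and Pcdhb9 had log2 fold changes of 0.05 and -0.03, or -0.05 and -0.13 without control 2. The tested beta members with the smallest p were Pcdhb11, Pcdhb7 and Pcdhb4, with log2 fold changes of 0.48 ± 0.39, -0.29 ± 0.26 and 0.36 ± 0.33 (SE) and edgeR adjusted p of 0.822, 0.822 and 0.823. Without control 2 these folds were 0.19, -0.48 and 0.17 on the log2 scale. All 21 tested beta genes had log2 fold changes between -0.30 (Pcdhb15) and 0.52 (Pcdhb8), and between -0.57 (Pcdhb15) and 0.19 (Pcdhb11) without control 2.

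Without control 2 the beta genes leaned lower in overexpression 2 and 3, though none passed. Their median log2 difference from the mean of controls 1 and 3 was -0.29 and -0.26 in overexpression 2 and 3. In overexpression 1, the library with the most Wnt3, it was -0.0062. Of 21 members 16 were below 0, and 3 (Pcdhb7, Pcdhb13 and Pcdhb15) had an unadjusted p under 0.05, all lower. Over all genes tested without control 2, 5.87% had such a p and 2.8% were lower with it. Pcdha10 was the fourth member with such a p. Pcdhb13 was at 7.20 and 6.70 CPM in controls 1 and 3, against 4.58, 5.32 and 4.76 CPM in overexpression, with 2.97 CPM in control 2. Pcdhb15 was at 5.44 and 4.57 CPM in controls 1 and 3, against 3.71, 2.94 and 3.43 CPM in overexpression and 2.44 CPM in control 2. Pcdhb7 was at 8.56 and 7.08 CPM in controls 1 and 3, against 5.96, 5.33 and 5.56 CPM in overexpression and 4.95 CPM in control 2. For each of these genes control 2 lay below all overexpression libraries, on the other side from controls 1 and 3. The log2 fold changes without control 2 were -0.51 ± 0.17, -0.57 ± 0.21 and -0.48 ± 0.17 (SE), and the lowest adjusted p of a beta member by edgeR was 0.792. Groups without control 2 did not overlap for 6 of 21 beta members, all lower, against 10.8% of genes tested there.

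Among the 19 gamma genes of the A and B subfamilies, which are chosen at random like the variable alpha genes, 12 had a log2 fold change above 0 and 7 below. The median was 0.22 over the 12 A genes and 0.04 over the 7 B genes, or 0.10 and -0.04 without control 2. Pcdhga11, the most abundant, was at 31.8, 17.2 and 43.9 CPM in the controls and 43.7, 34.5 and 39.6 CPM in overexpression, a log2 fold change of 0.35 ± 0.31 (SE). For Pcdhga11 it was 0.06 ± 0.17 without control 2 and 0.69 without control 3. Pcdhga6 was at 22.0, 10.5 and 20.7 CPM in the controls and at 33.3, 22.8 and 23.5 CPM in overexpression. Every overexpression library of Pcdhga6 exceeded every control, by little over control 1 in overexpression 2. The same held for Pcdhgb6, at 16.4, 10.9 and 19.9 CPM in the controls and 21.4, 23.9 and 20.6 CPM in overexpression. Pcdhga8 was at 12.8, 9.13 and 14.3 CPM in the controls and at 16.7, 14.2 and 18.7 CPM in overexpression, where overexpression 2 lay just below control 3. These 3 genes had the smallest p of the gamma cluster, with log2 fold changes of 0.58 ± 0.30, 0.48 ± 0.24 and 0.45 ± 0.23 (SE) and adjusted p of 0.822 each by edgeR. Without control 2 they were 0.31 ± 0.19, 0.28 ± 0.14 and 0.29 ± 0.16 (SE). At the low end, Pcdhga4 had a log2 fold change of -0.31 ± 0.24 (SE), or -0.29 ± 0.24 without control 2.

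Genes that surround the clustered protocadherins in function or position were taken from fixed lists, and none of their members passed by edgeR over all genes or by DESeq2 with all libraries. Of 11 protocadherins outside the clusters, most of them of the delta group, 9 had a log2 fold change above 0 with a median of 0.19, or -0.04 without control 2. Pcdh20, the one with the smallest p, was at 41.5, 17.5 and 34.3 CPM in the controls and 17.9, 11.0 and 11.5 CPM in overexpression. Its log2 fold change was -1.21 ± 0.34 (SE), with groups that overlapped because control 2 lay just below overexpression 1. Without control 2 it was -1.49, and DESeq2 then called Pcdh20 (adjusted p = 1.05e-06), among 0.571% of genes. Of 24 settings, this 1 alone called Pcdh20, and DESeq2 without single libraries was chosen after seeing the data. Pcdh12, which had the next smallest p, stood at 0.55 CPM or less in every library.

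Of 23 genes for promoter choice and chromatin, among them CTCF, cohesin subunits and DNA methyltransferases, 22 had a log2 fold change above 0, with a median of 0.25. Their summed level was 1816, 1158 and 1888 CPM in the controls and 1920, 1996 and 1881 CPM in overexpression, so that control 2 was again the low library, and the median was 0.08 without it. The log2 fold change was 0.62 ± 0.31 (SE) for Rest, a repressor of neuronal genes, and 0.64 ± 0.35 (SE) for Tet2, which oxidises methylcytosine, or 0.50 and 0.34 without control 2. Of 20 cytoplasmic and membrane partners, such as focal adhesion kinases and the WAVE complex, 9 were above 0 and 11 below, with a median of -0.02, or -0.01 without control 2. Ret, a receptor kinase that can partner with protocadherins, was at 1.46, 1.32 and 1.86 CPM in the controls and 2.48, 2.65 and 2.41 CPM in overexpression, without overlap and with an adjusted p of 0.822 by edgeR. For Ret the log2 fold change was 0.70 ± 0.29 (SE), or 0.60 without control 2. Brk1, a WAVE complex subunit, was at 188 CPM in control 2 and at 69.8 to 97.2 CPM elsewhere, and its log2 fold change of -0.53 was -0.05 without control 2.

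Of the 7 cleavage proteases, 4 were above 0 and 3 below, with a median of 0.08, or 0.05 without control 2. The log2 fold change of Adam10, which sheds protocadherin ectodomains, was 0.25 ± 0.19 (SE), and that of Psenen, a gamma-secretase subunit, -0.47 ± 0.29 (SE), or 0.12 and -0.03 without control 2. Psenen stood at 44.8 CPM in control 2 and at 20.4 to 22.2 CPM in the other libraries. Of 17 tested neighbours on chromosome 18, at most 577 kb from the clusters, 4 were above 0 and 13 below, with a median of -0.10, or 0.04 without control 2. Unlike the protocadherins, the summed neighbours were highest in control 2 in CPM, at 1785 against 1320 to 1363 CPM in the other libraries. In TPM they were not, at 1581 in control 2 against 1479 to 1650 elsewhere. Gnpda1, an enzyme of glucosamine metabolism, was at 17.3, 14.1 and 16.7 CPM in the controls and 19.9, 25.9 and 20.2 CPM in overexpression (adjusted p = 0.822 by edgeR). The log2 fold change of Gnpda1 was 0.46 ± 0.19 (SE), or 0.37 without control 2, and that of Rell2 was -0.53 ± 0.28 (SE), or -0.23 without control 2.

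Markers of other cell types moved with some libraries. The 10 neuronal markers summed to 8613, 7176 and 8374 CPM in the controls and 7936, 8105 and 8470 CPM in overexpression, so that control 2 was lowest there as well, at a smaller margin than in the protocadherin clusters. Astrocyte markers summed to 5831, 2906 and 6502 CPM in the controls and 4903 to 5589 CPM in overexpression. Oligodendrocyte markers summed to 6526 CPM in control 2, above the other libraries (2950 to 6097 CPM). In TPM control 2 was not above them, at 4109 against 2563 to 5357 elsewhere. Inhibitory neuron markers summed to 741 CPM in control 2 against 594 to 801 CPM elsewhere. In TPM control 2 was the highest library for them, at 1021 against 634 to 894 elsewhere. Markers of oligodendrocyte precursors summed to 175 to 181 CPM in the controls and 143 to 172 CPM in overexpression, without overlap. Of these 5 genes, 2 had a log2 fold change above 0 and 3 below. Microglial markers summed to 275 to 387 and 225 to 364 CPM. All 6 endothelial markers were counted in every library. Their sums were 114 to 120 CPM in the controls and 154 to 204 CPM in overexpression, without overlap. Of the 6 genes, 4 had a log2 fold change above 0 and 2 below. Among all tested single genes, the groups did not overlap for 11.9%. Choroid plexus markers stood at sums of 2.60 to 4.41 and 2.76 to 7.04 CPM, with 3 of 6 counted in every library, and meningeal fibroblast markers at 26.9 to 60.7 and 26.9 to 82.6 CPM. The part of cell composition in the protocadherin values was not tested.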

How the data were processed

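Gene expression was measured by RNA-seq in 3 control and 3 overexpression libraries, made strand-specific per the labels' protocols. Tools named in the submitters' processing notes, without roles, are STAR 2.5.3a, FastQC 0.11.5, DESeq 1.16.1 and Cuffnorm, with mm10 as build. The authors deposited raw counts per gene and, for the same genes, TPM. No source used here names the counting program, annotation or strand setting, so antisense and overlapping genes may share reads. Table columns were matched to samples, and samples to groups, by GEO's labels.

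Genes passing filterByExpr (minimum count 10) were tested over the whole table with edgeR 4.0.16 in R 4.3.3 (glmQLFit and glmQLFTest, TMM factors, a group term alone, 4 residual degrees of freedom), with adjusted p under 0.05 as the call. The 22360 genes tested held over 99.9% of counts in each library. The SE is the log2 fold change over the square root of F. CPM uses TMM-scaled library sizes, and log2 CPM per library a prior count of 2. An exact permutation test of 3 against 3 cannot give p under 0.1, and none was used. Relative transcript length is the ratio of counts to TPM. Alternatives were DESeq2 1.42.0, limma 3.58.1 (voom, and trend on log2 TPM), other scalings and filters, a replicate block and the omission of each library. The removal of a length trend (lowess, span 0.3), DESeq2 without each library and the cluster total as 1 row of the fit were chosen after seeing the data. The fits were tested on simulated counts, drawn without a length trend and without a library that stands apart as control 2 does. Those runs therefore cannot show how the fits handle control 2.

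The members and lists were chosen with earlier results of these data known. Any member could be named. Full statistics were set for the C-type genes, the 3 members with the highest mean TPM and the 3 with the smallest p in each cluster, any member called, and up to 2 genes with the smallest p in each related list. Values of other members, and of the gene models overlapping the clusters, were picked after they were seen.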

Additional observations from a re-analysis of the deposited data

How the results depend on the processing

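By edgeR, 0 members and 0 genes in all passed with other scaling factors, other filters, the length trend removed, an adjusted p of 0.1 or any library left out, and limma gave 0 as well. At an unadjusted p under 0.05 edgeR gave 1040 genes. DESeq2 called 64 genes and 1 alpha member, Pcdha10. It called 88, 132 and 108 genes without controls 1, 2 and 3 and 29, 13 and 64 without overexpression 1, 2 and 3, and Pcdha10 was the 1 alpha member called without each control, with 0 called without each overexpression library. The log2 fold change of Pcdha10 was below 0 under every alternative, with edgeR and limma values from -2.05 to -1.08. With each library left out, medians ran from -0.14 to 0.48 (alpha), -0.16 to 0.19 (beta) and -0.03 to 0.36 (gamma), and the log2 ratios of cluster totals from -0.12 to 0.09, -0.19 to 0.17 and -0.04 to 0.25. The alpha median was 0.48 without control 3. With the length trend removed, the medians were -0.10, -0.0047 and 0.0005. Samples with the same replicate number did not deviate together (correlations of 0.06, -0.02 and -0.01). These deviations are from the means of few libraries, so the correlations cannot decide whether samples were paired. With a replicate block 0 genes passed and the medians were 0.14, 0.09 and 0.17. Where neither value passed, a change of sign was not counted as a reversal. Pcdha8 had 13 counts in control 2, so its folds rest on few reads.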
